A study of Mus musculus with 27 samples.

Results

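The comparison described here asked which transcripts SB431542 (SB) changed in mouse embryonic fibroblasts (MEFs) that had been given 5 cardiac transcription factors. It took 6 of the 27 arrays of the study, 3 with SB at 0.5 µM and 3 with its DMSO vehicle, and all 19938 genes that a probe set with a single symbol could represent. Both groups carried lentiviruses for Hand2, Nkx2-5, Gata4, Mef2c and Tbx5 (HNGMT), for the rtTA activator that drives them, and for a calcium reporter under the Troponin T promoter. Both received doxycycline, which switches the factors on, and SB or DMSO was added on the day before doxycycline. RNA was taken on Day 3. MEFs without the factors (0TF) with 0.5 µM SB or DMSO, and HNGMT MEFs with TGFβ1 at 2 ng/mL, had 3 arrays each and are used below for comparison. The labels describe the samples of a group as separate biological replicates. One label of the 0TF samples names an empty vector and another says that they got no transcription factor, so whether they carried a control virus is not settled. The labels do not tie the samples to embryos, so the p-values measure the spread between these samples.

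TGFβ and activin ligands act through a type II and a type I serine kinase receptor, and the type I receptor phosphorylates Smad2 and Smad3, which enter the nucleus with Smad4. SB431542 blocks the kinase of the type I receptors Alk4, Alk5 and Alk7, encoded by Acvr1b, Tgfbr1 and Acvr1c. It spares the type I receptors for BMPs, which signal through other Smads. In fibroblasts the TGFβ pathway is known for raising the synthesis and crosslinking of extracellular matrix and the contractile apparatus of myofibroblasts.

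Values are log2 intensities, on which a difference of 1 is a change of 2-fold. A gene is said to have risen or fallen when limma gave a Benjamini-Hochberg adjusted p under 0.05 and the fold was at least 1.5, and to have been higher or lower when the adjusted p alone was met. With HNGMT, SB raised 78 genes (0.391% of those tested) and lowered 86 (0.431%), and 665 genes (3.34%) were higher and 806 (4.04%) lower at any fold. The median over all genes was 0.0087, close to no shift of the arrays as a whole. The changes were small: 32 of the called genes reached a log2 difference of 1, and the values ran from -1.78 to 1.92. All 164 called genes had SB arrays that did not overlap the DMSO arrays, as did 4139 genes, or 20.8%, of all those measured. The 6 arrays had medians of 7.87 to 7.91. RNA was measured in the whole culture, so a change in the share of cells of one kind and a change in RNA per cell cannot be told apart.

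Fibroblast markers changed little in size, with log2 differences from -0.31 to 0.17, but more were lower than higher. Of 14 fibroblast markers, 1 was higher (none with any 1 of the 6 arrays left out) and none passed the 1.5-fold threshold. Those lower numbered 6 (4 or 5 with 1 array left out), where 4.04% of all genes were lower. Their mean level was 12.22 to 12.25 in the DMSO arrays and 12.18 to 12.20 in the SB arrays. Among 10 cardiomyocyte markers 4 rose (2 without SB replicate 2), and their mean level was 9.57 to 9.65 with DMSO and 9.87 to 10.31 with SB, against 7.63 to 7.75 in 0TF MEFs with DMSO. None of 12 leukocyte and none of 14 skeletal muscle markers was higher or lower. Of the 10 markers each of mast cells, of neurons and glia, and of epicardium and mesothelium, 1, 1 and 2 passed at any fold, and of 11 epithelial and 16 endothelial markers, 3 and 4. The first 2 lists had theirs lower, and the other 3 had markers in both directions. Past 1.5-fold, the mesothelial marker Msln fell by 0.63, and 1 endothelial marker rose and 1 fell. Of 8 adipocyte markers 3 were higher.

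The receptors that SB inhibits and the delivered factors were read first. Acvr1b had a log2 difference of 0.11 (adjusted p = 0.085), Tgfbr1 of -0.10 (adjusted p = 0.421) and Acvr1c of -0.02 (adjusted p = 0.953), and none passed the test. None of the 5 factor genes passed it either: Hand2 had -0.09, Nkx2-5 0.05, Gata4 0.04, Mef2c -0.10 and Tbx5 0.20 (adjusted p = 0.119 for Tbx5). These probe sets read the mouse genes, and whether they also read the delivered sequences was not tested. For its quantitative RT-PCR the paper lists human (Hs) assays for Nkx2-5, Gata4, Mef2c and Tbx5 and a mouse (Mm) assay for Hand2. With DMSO, Hand2 averaged 11.69 with HNGMT and 9.21 in 0TF MEFs. The same means were 9.12 and 9.11 for Nkx2-5, 8.77 and 8.42 for Gata4, 9.90 and 10.47 for Mef2c, and 9.46 and 10.39 for Tbx5. Apart from Hand2, the values therefore give no clear reading of the delivered factors.

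Genes that TGFβ is known to induce were lower as a group. Of 28 measured, 17 were lower, none was higher, and the median was -0.18. The 6 that fell were Ltbp2, Ccn2, Pmepa1, Nox4, Itga11 and Itgb5. Relative to the same DMSO arrays, TGFβ1 gave -0.03 for Ccn2, 0.05 for Pmepa1, 0.12 for Ltbp2, 0.39 for Itgb5 and 0.43 for Itga11. Pmepa1, a membrane protein that restrains Smad signalling, stood at 12.09, 12.08 and 12.05 with DMSO and at 11.39, 11.31 and 11.34 with SB. The 2 groups lay far apart relative to their spread, and the fall was 0.73 on the log2 scale (adjusted p = 5.77e-10). Smad7 and Skil, feedback inhibitors of the pathway, were lower at -0.36 and -0.57, short of the fold threshold. Among 30 ligands, receptors and regulators of the TGFβ and activin family 3 were higher and 7 lower (median -0.03). Inhba, the βA subunit of activin, was lower at -0.53 (adjusted p = 8.06e-07), and Tgfbr3, the co-receptor betaglycan, rose from 10.77, 10.97 and 10.91 to 11.60, 11.59 and 11.59, a difference of 0.71 (adjusted p = 6.36e-07).

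Genes of elastic fibers were lower as a group. Elastic fibers form when elastin is laid on a scaffold of fibrillin microfibrils, guided by fibulins and LTBPs and crosslinked by lysyl oxidases. Of 24 genes for these parts 5 fell, 13 were lower, 3 were higher and the median was -0.23. Ltbp2, which binds fibrillin and fibulin, stood at 11.09, 11.08 and 11.07 with DMSO and at 9.76, 9.70 and 9.64 with SB, and this difference of -1.38 (standard error 0.04, adjusted p = 2.76e-13) had the smallest p of the list. The microfibril protein gene Mfap4 read 11.28, 11.21 and 11.19 with DMSO against 10.20, 10.18 and 10.10 with SB, a difference of -1.06 (adjusted p = 1.11e-10). In both genes every SB array lay below every DMSO array. With TGFβ1 Mfap4 was below DMSO too, at -1.27. Adamtsl2, a secreted protein of microfibrils that also binds LTBP1, went from 9.58, 9.58 and 9.57 to 8.51, 8.41 and 8.40, with a difference of -1.13 (adjusted p = 1.47e-08).

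Lox, the lysyl oxidase that crosslinks elastin and collagen, read 13.11, 13.21 and 13.10 with DMSO and 12.37, 12.37 and 12.36 with SB, a fall of 0.77 (adjusted p = 1.59e-10). Eln, which encodes elastin itself, fell by 0.74 (adjusted p = 1.3e-06). Not all of the list went down: Emilin2 (0.41), Efemp1 (0.36) and Fbln1 (0.25) were higher. Without the factors SB gave 0.02 for Lox, and the difference between the 2 effects of SB was -0.79 (adjusted p = 4.9e-09, limma interaction). For Adamtsl2 the SB effect was -0.28 without the factors, a difference of -0.85 (adjusted p = 2.37e-05). Ltbp2 differed less, with -1.17 in 0TF MEFs, and that difference of -0.21 did not reach 1.5-fold. Eln had -1.29 in 0TF MEFs.

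**Figure D1:**
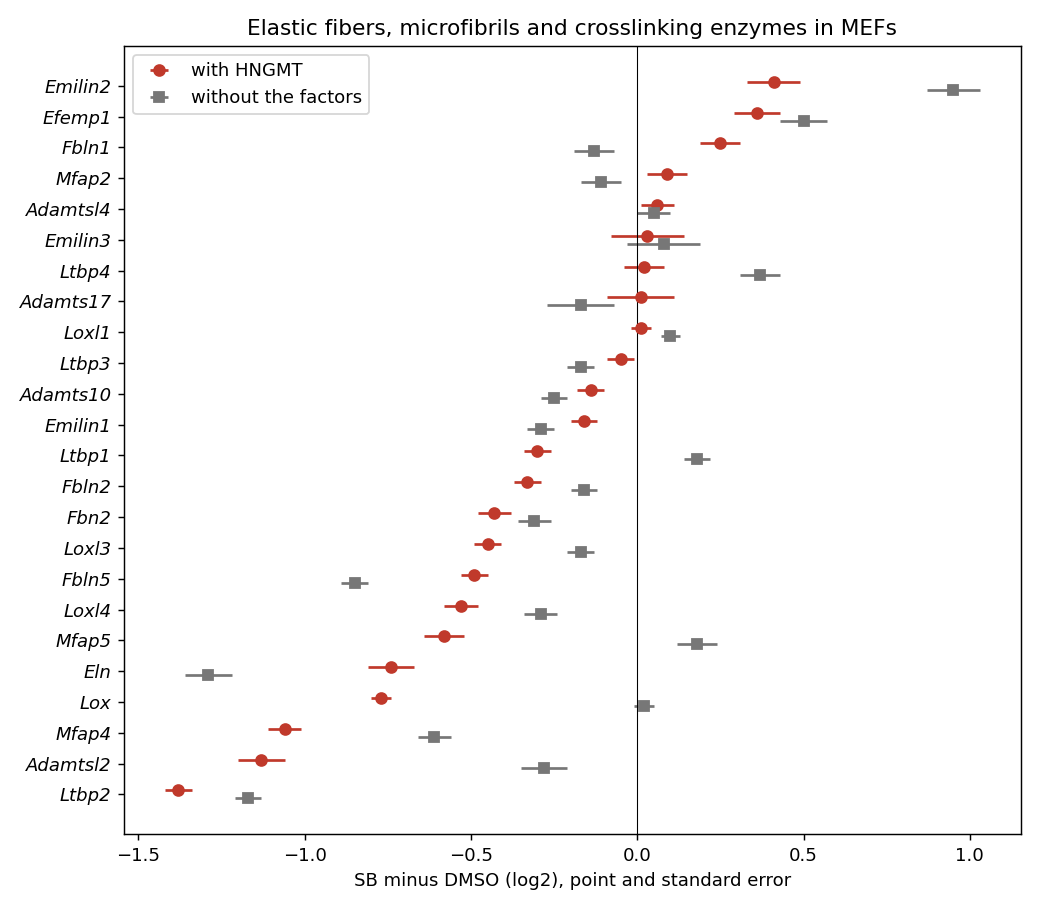
SB minus DMSO (log2, horizontal axis) for the 24 measured genes of elastic fibers, microfibrils and crosslinking enzymes, with HNGMT (red circles) and without the factors (gray squares), each with its standard error. Ltbp2 stands at -1.38 and -1.17, and Lox at -0.77 with HNGMT against 0.02 without.

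The promoters of Ltbp2 and Adamtsl2 are shown because both genes fell by more than 2-fold and their windows hold CAGAC, the core of the Smad binding element. Each is the 250 bases before the annotated start in RefSeq (GRCm38.p6), 5′ to 3′ on the strand of the gene, with CAGAC, read on either strand, in capitals. Ltbp2 lies on the minus strand at chr12:84876492-84876741 and Adamtsl2 on the plus strand at chr2:27079129-27079378.
Ltbp2: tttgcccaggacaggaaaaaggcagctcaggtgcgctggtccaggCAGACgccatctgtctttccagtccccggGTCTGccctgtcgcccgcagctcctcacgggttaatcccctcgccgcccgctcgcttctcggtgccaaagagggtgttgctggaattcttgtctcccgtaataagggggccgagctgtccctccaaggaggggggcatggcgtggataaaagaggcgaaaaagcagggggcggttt
Adamtsl2: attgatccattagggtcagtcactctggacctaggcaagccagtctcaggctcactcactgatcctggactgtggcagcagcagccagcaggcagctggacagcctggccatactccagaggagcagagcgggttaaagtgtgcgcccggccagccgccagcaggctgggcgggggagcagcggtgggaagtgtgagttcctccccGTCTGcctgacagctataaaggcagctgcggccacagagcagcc
These 5 letters are common. On either strand they were in 41.2% of the 15614 windows of measured genes, in 29 of the 57 windows found for lowered genes (50.9%) and in 19 of the 50 found for raised genes (38.0%). A window was found for 107 of the 164 called genes. A match describes the letters and is not evidence of a bound site.

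Of 27 collagen chains 12 were lower and 1 higher (median -0.10), and the 2 that fell were Col5a2 and Col11a1, both at -0.63, which encode chains of the fibrils that regulate fibril diameter. Col5a2 read 11.66, 11.71 and 11.68 with DMSO and 11.06 in all 3 SB arrays. Col12a1 was lower at -0.53, and Col8a1 at -0.32 with HNGMT against -1.96 without, a difference of 1.64 (adjusted p = 4.15e-12). Of 23 genes for collagen modification and secretion 10 were lower, none higher, and P4ha3, a prolyl 4-hydroxylase subunit, fell by 0.98 (adjusted p = 1.55e-08). Without DMSO replicate 2 the number lower in this last list was 5. Plod2, a lysyl hydroxylase, was lower at -0.38.

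Proteoglycans and tendon genes were the next group. Of 32 genes of proteoglycans and hyaluronan 4 fell, 1 rose, 12 were lower and 3 higher (median -0.09). Prg4, the joint lubricant lubricin, read 8.89, 8.98 and 8.83 with DMSO and 7.22, 7.30 and 7.48 with SB, a difference of -1.57 (adjusted p = 4.76e-09). Hapln1, which links hyaluronan to aggrecan, went from 10.04, 10.27 and 10.13 to 8.81, 8.96 and 8.96, a difference of -1.24. Fmod and Omd, small leucine-rich proteoglycans, fell by 0.73 and 0.87. Prg4 was among the genes whose SB effect was larger with the factors: -0.41 in 0TF MEFs, a difference of -1.16 (adjusted p = 8.69e-06). With TGFβ1 Prg4 was at 1.60 relative to the same DMSO arrays, while Hapln1 was at -1.31 and Fmod at -1.29. The SB and TGFβ1 comparisons share their DMSO arrays, so throughout the text the values stand side by side only.

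Of 23 genes of tendon, cartilage and bone 2 fell (Prg4 and Fmod), 9 were lower and none was higher (median -0.11). Scx and Mkx, transcription factors of tendon cells, were lower at -0.43 (adjusted p = 0.000175) and -0.44 (adjusted p = 7.31e-05). Scx had 10.21, 10.09 and 10.11 with DMSO and 9.75, 9.69 and 9.69 with SB. Tnmd, a membrane protein of tenocytes, was lower at -0.48, and Comp, a pentameric protein of cartilage and tendon, at -0.50. Both transcription factors had larger negative values in 0TF MEFs, -1.11 and -1.14, and the differences of 0.69 and 0.70 passed the test. The tendon genes Scx and Tnmd were picked out after their values were seen.

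Matricellular proteins split in both directions. These are secreted proteins that modulate how cells read the matrix. Of 28, 4 fell, 3 rose, 14 were lower and 5 higher (median -0.16), and without SB replicate 1 or without DMSO replicate 3 the number higher was 3. The CCN family went both ways. Ccn2, or connective tissue growth factor, read 13.28, 13.27 and 13.25 with DMSO and 12.02, 12.08 and 11.99 with SB, a difference of -1.24 (adjusted p = 1.86e-11). Ccn4 fell by 0.60 and Ccn5 by 0.84, although without DMSO replicate 1 or replicate 2 Ccn4 stood at -0.58, just short of the fold threshold. Ccn3 moved the other way, from 11.16, 11.20 and 11.09 to 11.85, 11.83 and 11.83, a rise of 0.69 (adjusted p = 5.84e-08). In 0TF MEFs Ccn3 had -0.19, a difference of 0.87 (adjusted p = 1.8e-07), and with TGFβ1 it had -2.77. Sparcl1 and Egfl6, secreted matrix-associated proteins, both rose by 1.09. Egfl6 had -0.16 without the factors, and the difference of 1.24 passed (adjusted p = 8.55e-07).

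Among 31 matrix proteases and inhibitors 2 rose, 1 fell, 6 were higher and 9 lower (median -0.01). The number lower was 4 without SB replicate 3 or without DMSO replicate 2. Mmp3, stromelysin, rose from 9.75, 10.09 and 9.92 to 11.03, 10.87 and 11.08 (difference 1.07, adjusted p = 7.27e-06). Timp4, an inhibitor of metalloproteinases, rose by 0.85 and had 2.09 in 0TF MEFs. Plaur, the urokinase receptor, fell by 0.64. Sulf1, a sulfatase that edits heparan sulfate, read 11.38, 11.48 and 11.45 with DMSO and 10.26, 10.22 and 10.41 with SB (difference -1.14, adjusted p = 1.11e-10), and Hpse2, a heparanase-like protein, rose from 7.23, 7.05 and 7.22 to 8.37, 8.23 and 8.28 (difference 1.13, adjusted p = 1.59e-10). These 2 genes, both outside the protease list, went in opposite directions.

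Among adhesion genes more were lower than higher, and most did not pass the test. Of 29 genes of integrins and focal adhesions 4 fell, 8 were lower and 1 was higher (median -0.06). Itgbl1, an integrin-beta-like secreted protein, went from 11.40, 11.47 and 11.37 to 9.97, 10.00 and 10.02 (difference -1.42, adjusted p = 1.11e-10). The collagen-binding integrin subunits Itga11 and Itga2 fell by 0.68 and 0.70, and Itgb5 fell by 0.64. Among 33 genes of junctions and adhesion 3 fell, 8 were lower and 2 higher (median -0.10). Mpzl2, an immunoglobulin-like adhesion protein, fell by 1.32, Gjb2, the gap junction protein connexin 26, by 1.26 and the cadherin gene Cdh10 by 0.65. Gjb2 read 9.17, 9.25 and 9.11 with DMSO and 7.92, 7.91 and 7.93 with SB, and its SB effect was nearly the same without the factors (-1.22). Mpzl2 had -0.35 without the factors, a difference of -0.97 (adjusted p = 2.49e-05).

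Of 27 smooth muscle and SRF targets, which include the actin and myosin genes of myofibroblasts, 1 fell, 5 were lower and 2 higher (median -0.06). The gene that fell was Pdlim3, a protein of the Z-line, with -0.81 (adjusted p = 8.06e-05), and Csrp2 was lower at -0.31. Of 23 targets of YAP and TEAD 3 fell (Ccn2, Nt5e and Nuak2), 7 were lower and none was higher (median -0.11).

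**Figure D2:**
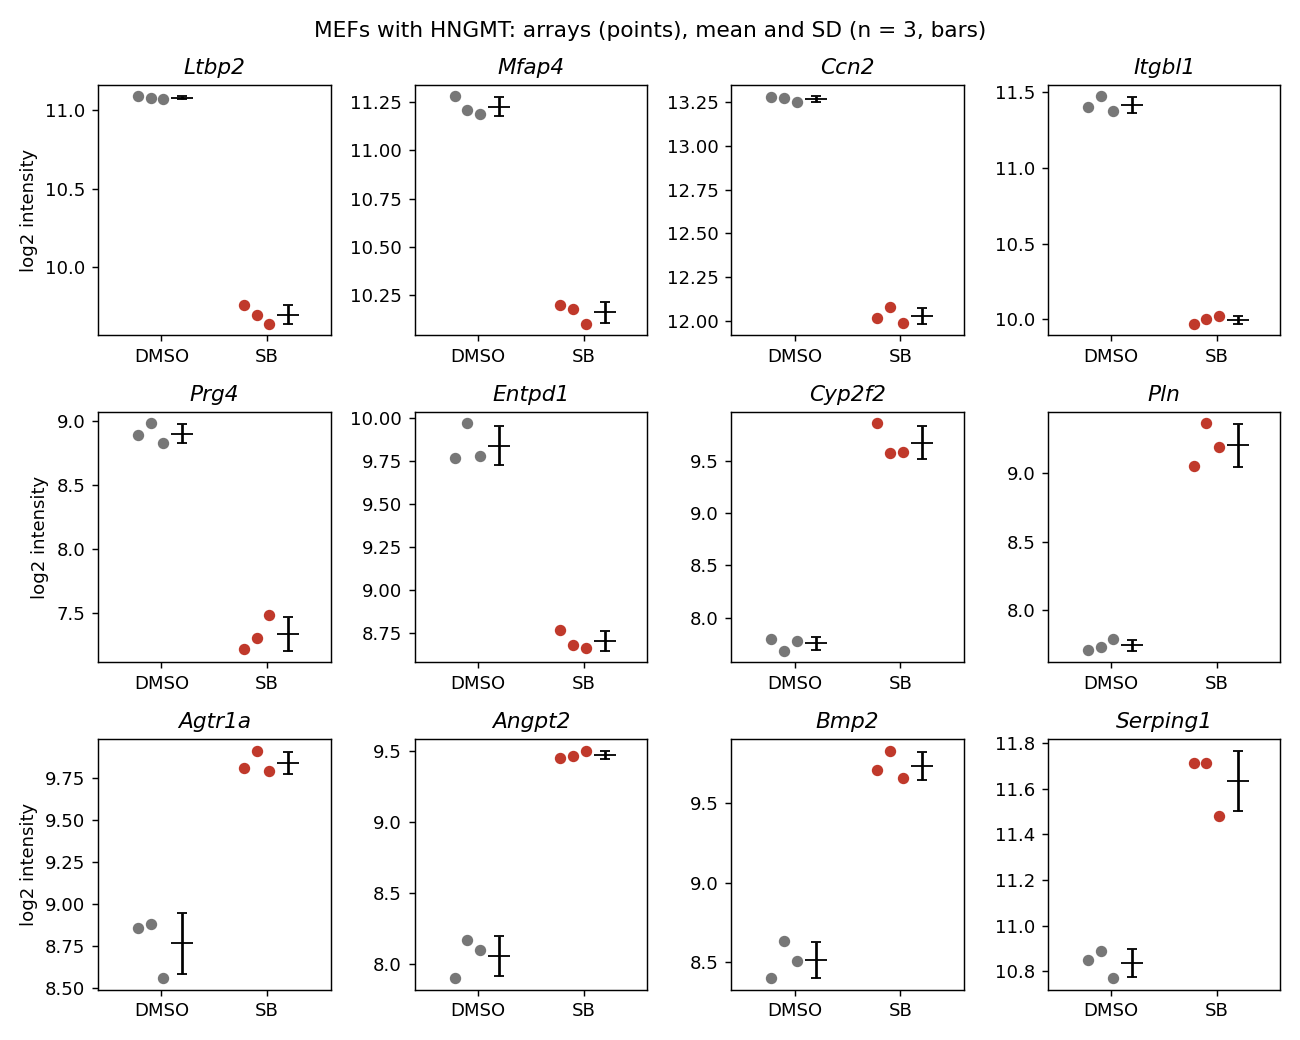
Log2 intensity in each of the 3 DMSO (gray) and 3 SB (red) arrays of MEFs with HNGMT for 12 genes, with the mean and SD as black bars, each panel on its own vertical axis. In every panel the SB arrays lie entirely above or entirely below the DMSO arrays.

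The enzymes that turn extracellular ATP into adenosine were both lower. Entpd1 (CD39) removes phosphates from ATP and ADP, and Nt5e (CD73) removes the last one from AMP. Entpd1 read 9.77, 9.97 and 9.78 with DMSO and 8.77, 8.68 and 8.66 with SB (difference -1.14, adjusted p = 9.19e-09). Nt5e read 9.98, 10.05 and 9.95 against 9.04, 9.02 and 9.20 (difference -0.90, adjusted p = 6.77e-09). In 0TF MEFs Entpd1 had -0.69 and Nt5e had 0.03. The difference passed for Nt5e at -0.94 (adjusted p = 2.08e-07) and at -0.44 fell short of 1.5-fold for Entpd1. With TGFβ1 Entpd1 had -1.95 and Nt5e 0.49. The pair was put together after their values were seen.

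**Figure D3:**
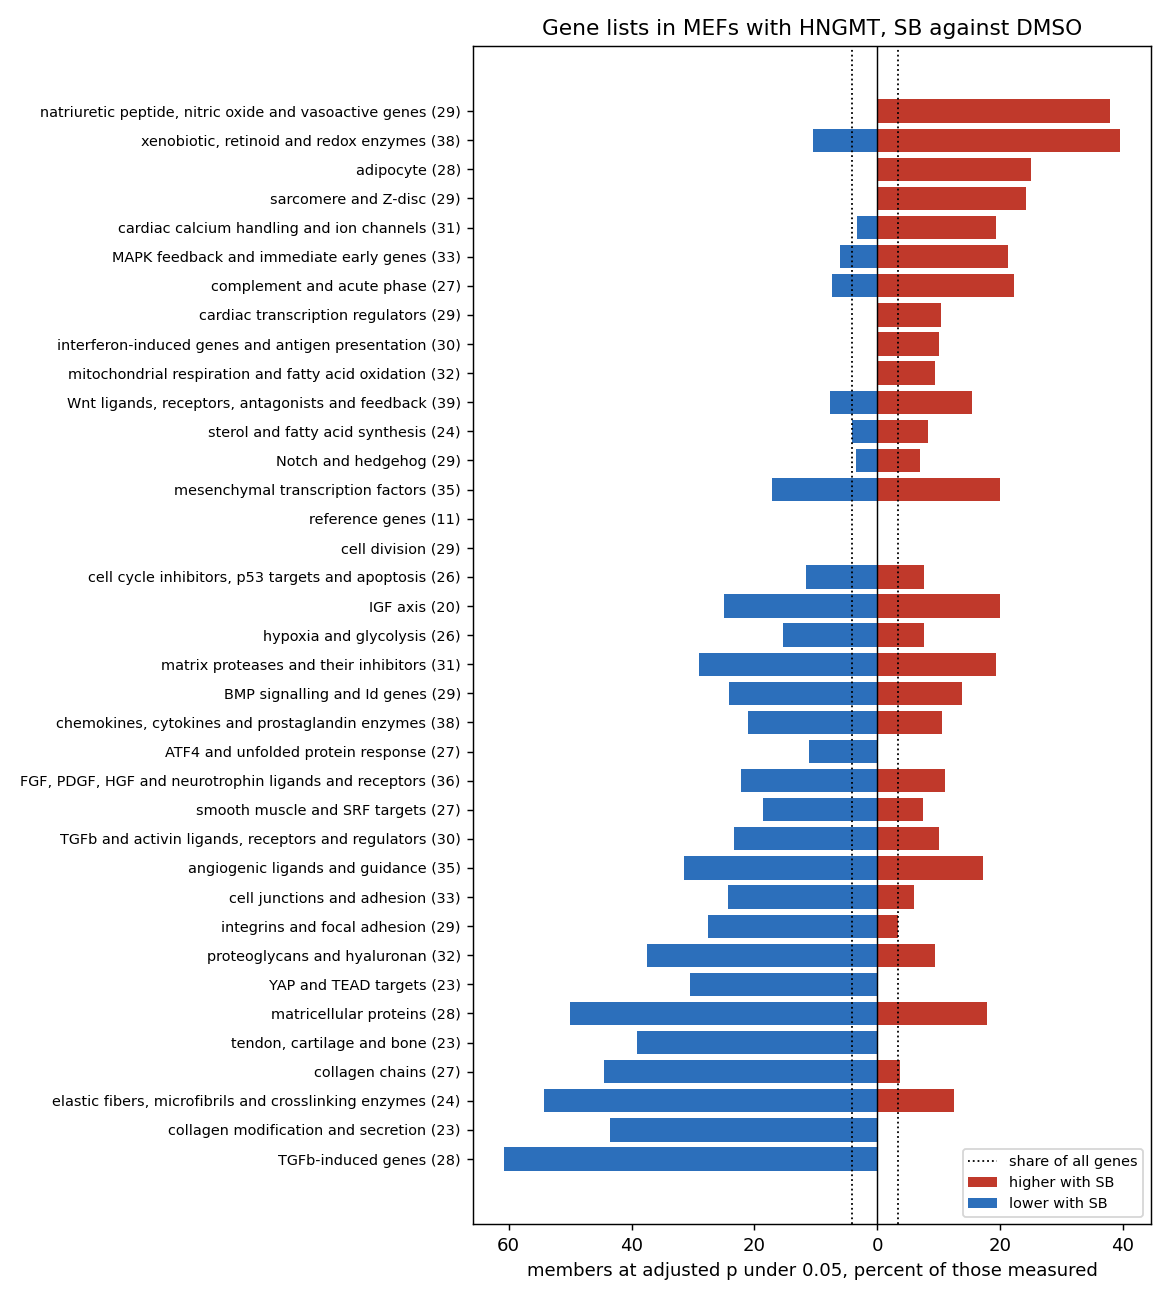
Share of the measured members of each gene list (number in brackets) that were higher (red, to the right) or lower (blue, to the left) with SB in MEFs with HNGMT at an adjusted p under 0.05, with dotted lines at the shares over all genes, 3.34% and 4.04%. Matrix and TGFβ-induced lists extend to the left, and vasoactive, enzyme, adipocyte and sarcomere lists to the right.

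A minority of the cardiac genes passed the test, nearly all of them higher. The list of 29 sarcomere and Z-disc genes had 4 that rose, 7 that were higher and none lower, with a median of 0.14. Tnni3, cardiac troponin I, read 10.88, 10.82 and 10.77 with DMSO and 11.53, 11.67 and 11.39 with SB (difference 0.71, adjusted p = 1.87e-05). Actc1, cardiac actin, read 11.49, 11.27 and 11.25 against 12.07, 12.66 and 11.79 (difference 0.84, adjusted p = 0.00168), and Myh6, the alpha myosin heavy chain, 7.72, 7.53 and 7.57 against 7.99, 8.78 and 8.07 (difference 0.67, adjusted p = 0.0058). In all 3 genes SB replicate 2 was the highest array. Myl7, an atrial myosin light chain, rose by 0.60 and stood at 0.53 without SB replicate 2 or without DMSO replicate 2. Without SB replicate 2 the list had 2 genes that rose, 5 that were higher and a median of 0.06. Tnnt2, cardiac troponin T, had 0.09 and did not pass (adjusted p = 0.662). Its values of 13.91 to 14.05 lie near the top of these arrays, 14.52 to 14.61, and whether a change goes unseen there was not tested.

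Of 31 genes of cardiac calcium handling and ion channels 2 rose, 6 were higher and 1 was lower (median 0.06). Pln, or phospholamban, the brake of the sarcoplasmic calcium pump, read 7.71, 7.73 and 7.79 with DMSO and 9.05, 9.36 and 9.19 with SB (difference 1.46, adjusted p = 2.1e-08). Hcn4, the pacemaker channel, rose by 0.65 but stood at 0.55 without SB replicate 2 and at 0.56 without DMSO replicate 1. Ryr2, the calcium release channel, was higher at 0.43 and Gja5, the gap junction protein connexin 40, at 0.48. Of 29 cardiac transcription regulators 2 rose, 3 were higher and none was lower (median 0.05). Myocd, a coactivator of SRF, rose from 10.25, 10.34 and 10.24 to 10.92, 10.94 and 10.98 (difference 0.67), and Ppargc1a, a coactivator of mitochondrial genes, by 0.84. Tbx20 was higher at 0.42 (adjusted p = 0.00896), with SB replicate 2 at 7.03 above the other two at 6.59 and 6.49. It did not pass when the 6 arrays were fitted alone (adjusted p = 0.0977).

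**Figure D4:**
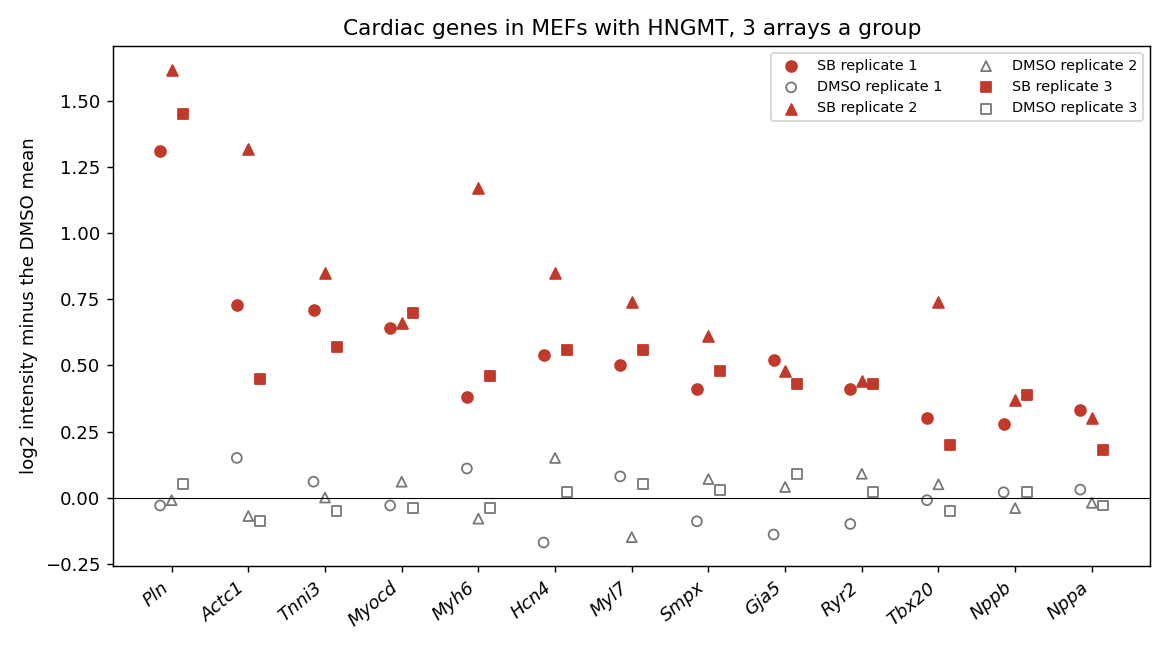
Log2 intensity minus the DMSO mean for 13 cardiac genes in MEFs with HNGMT, with SB arrays in red and DMSO arrays as open gray symbols, and a symbol shape for each replicate number. SB replicate 2 stands at the top for Pln, Actc1, Tnni3, Myh6, Hcn4, Myl7, Smpx and Tbx20, and near the other SB arrays for Myocd, Gja5 and Ryr2.

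In 0TF MEFs none of the cardiac genes named above rose, but Ppargc1a (0.45) and Myocd (0.22) were higher. Gja5 was lower there at -0.33, and Tnnt2 also had a negative value, given in the closing section. Pln had 0.00, and the difference of 1.46 between the SB effects passed the test (adjusted p = 1.27e-06). The differences also passed for Tnni3 (0.93), Actc1 (0.96), Myl7 (0.68), Hcn4 (0.72) and Gja5 (0.81). Those of Ppargc1a (0.39) and Myocd (0.44) fell short of 1.5-fold. In the sarcomere list 5 of 29 genes had a more positive SB effect with HNGMT, and none a more negative one. The promoters of Pln and Tnni3 are shown because these are cardiac genes that rose with the factors and did not rise without them, and each window holds a short motif of a delivered factor family. For Pln this is the motif that GATA factors bind, AGATAA, which lies on the other strand here. For Tnni3 it is GGTGTGA, a T-box motif. Both are in capitals in the 250 bases before the RefSeq start (GRCm38.p6). Pln lies on the plus strand at chr10:53337436-53337685 and Tnni3 on the minus strand at chr7:4522529-4522778.
Pln: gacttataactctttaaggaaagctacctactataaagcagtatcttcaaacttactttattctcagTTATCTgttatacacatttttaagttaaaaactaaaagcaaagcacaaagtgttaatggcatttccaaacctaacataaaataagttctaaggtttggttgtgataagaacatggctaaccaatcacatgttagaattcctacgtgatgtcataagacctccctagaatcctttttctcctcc
Tnni3: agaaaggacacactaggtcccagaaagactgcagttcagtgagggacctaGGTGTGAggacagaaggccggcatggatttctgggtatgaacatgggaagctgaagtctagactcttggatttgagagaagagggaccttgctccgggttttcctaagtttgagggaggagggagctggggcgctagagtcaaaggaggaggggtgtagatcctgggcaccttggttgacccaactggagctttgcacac
The GATA motif was in 8.75% of all windows and in 3 of 50 windows of raised genes (6.0%). The T-box motif was in 3.16% of all windows and likewise in 3 of the 50. No other use is made of these matches.

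Some receptors and enzymes of vascular signalling were higher. The list held natriuretic peptides, the receptor guanylyl cyclases and soluble cyclase for nitric oxide, and receptors for angiotensin, prostacyclin and related ligands. Of its 29 genes 3 rose, 11 were higher, none was lower and the median was 0.08, although the number higher was 7 without SB replicate 1 or without DMSO replicate 3. Agtr1a, the angiotensin II receptor, read 8.86, 8.88 and 8.56 with DMSO and 9.81, 9.91 and 9.79 with SB (difference 1.07, adjusted p = 8.77e-09). Gucy1b1, a subunit of the soluble guanylyl cyclase that senses nitric oxide, read 8.68, 8.90 and 8.64 against 9.43, 9.54 and 9.46 (difference 0.74, adjusted p = 6.84e-06), and its partner subunit Gucy1a1 was higher at 0.32. Ramp2, the accessory protein of the adrenomedullin receptor, rose from 7.91, 8.28 and 8.16 to 9.19, 9.17 and 8.82 (difference 0.94). Npr3, the clearance receptor for natriuretic peptides, was higher at 0.48, and Ptgir, the prostacyclin receptor, at 0.50.

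These genes differed in how they behaved without the factors. Ramp2 had 0.96 in 0TF MEFs, close to its value with HNGMT. Agtr1a had 0.38, a difference of 0.69 (adjusted p = 6.82e-05), and Npr3 had -0.36, a difference of 0.84 (adjusted p = 2.26e-06). With TGFβ1 the values were -0.79 for Agtr1a, -0.64 for Gucy1b1, -0.33 for Ramp2 and -1.04 for Npr3.

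Angpt2, which antagonizes angiopoietin-1 at Tie2, read 7.90, 8.17 and 8.10 with DMSO and 9.45, 9.46 and 9.50 with SB (difference 1.41, adjusted p = 4.09e-10). Its list of 35 angiogenic ligands and guidance genes had 1 other call, Angptl7 at -0.72, with 6 genes higher and 11 lower (median -0.05). Robo2 and Unc5b, receptors of the guidance cues Slit and netrin, were lower at -0.49 and -0.41, and Sema5a was higher at 0.41. Endothelial markers did not follow Angpt2 as a group: of 16, 2 were higher and 2 lower (median 0.03). Adgrf5, an adhesion G protein-coupled receptor, rose by 0.61 (0.57 under quantile normalization, short of the fold threshold). Tek, which encodes Tie2, was higher at 0.40, with 0.84 in 0TF MEFs. The transcription factor Erg fell by 0.78 and Ptprb was lower at -0.19, while Pecam1 and Kdr had 0.03 and 0.00 and did not pass.

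Some enzymes of detoxification were higher. Of 38 genes of xenobiotic, retinoid and redox metabolism 2 rose, 15 were higher and 4 lower (median 0.09), and without SB replicate 1 or without DMSO replicate 3 the number higher was 9. Cyp2f2, a cytochrome P450, read 7.80, 7.68 and 7.78 with DMSO and 9.86, 9.58 and 9.59 with SB, and its 1.92 (standard error 0.12, adjusted p = 9.35e-09) was the highest value of the comparison. Fmo1, a flavin monooxygenase, rose from 8.01, 8.03 and 8.04 to 8.61, 8.69 and 8.62 (difference 0.61). The glutathione transferase genes Gstm1, Gstt1 and Gsta4 were higher at 0.43, 0.55 and 0.37, and the flavin monooxygenase gene Fmo2 at 0.30. The members that were lower bind or convert retinoids: Crabp1 at -0.38, Crabp2 at -0.40, Dhrs3 at -0.34 and Aldh1a1 at -0.28. Apart from Cyp2f2, Fmo1, Crabp1 and Gstm1, these names were picked after the values were seen. Steap4, a metalloreductase outside the list, rose from 7.95, 8.14 and 7.89 to 9.39, 9.43 and 9.37 (difference 1.40, adjusted p = 1.1e-08), and in 0TF MEFs it had 1.12.

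Of all the lists, that of adipocyte genes held the most called differences between MEFs with and without the factors. Pparg is the nuclear receptor that drives fat cell formation. With HNGMT 2 of 28 adipocyte genes rose, 7 were higher and none was lower (median 0.13). Without the factors 18 of the 28 rose (median 1.09). The SB effect was more negative with HNGMT than without in 17 of the 28, and more positive in none. Fabp4, a fatty acid carrier of fat cells, went from 8.52, 8.42 and 8.53 to 9.15, 9.14 and 9.07 with HNGMT (difference 0.63), while its SB effect in 0TF MEFs was 3.95. Cd36, a fatty acid uptake receptor, had 0.53 with HNGMT and 4.76 without, and Pparg 0.54 and 1.76. Adipoq, an adipocyte hormone, had 0.15 with HNGMT and did not pass (adjusted p = 0.142), against 4.07 without. The adipocyte markers had a mean level of 7.49 to 7.60 with DMSO and 7.75 to 7.87 with SB under HNGMT, and of 7.53 to 7.57 and 10.43 to 10.57 in 0TF MEFs.

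Across all genes, the SB effect was more positive with HNGMT than without in 178 (0.893%) and more negative in 212 (1.06%) at a difference of at least 1.5-fold. SB alone raised 252 genes (1.26%) and lowered 226 (1.13%) in 0TF MEFs. Of the 78 genes raised with HNGMT 25 were also raised without the factors and none was lowered. Of the 86 lowered with HNGMT 47 were also lowered and none was raised. A difference between the 2 effects was called for 40 of the raised genes, 31 more positive and 9 more negative, and for 24 of the lowered, 8 and 16. Serpinb1a, an inhibitor of neutrophil proteases, is an example of the last kind: it read 10.58, 10.38 and 10.41 with DMSO and 9.32, 9.24 and 9.19 with SB, a difference of -1.20, against -0.08 without the factors. C1qtnf3, a secreted C1q and TNF related protein, had the most negative value with HNGMT. It read 9.45, 9.34 and 9.50 with DMSO and 7.60, 7.69 and 7.66 with SB (difference -1.78, adjusted p = 4.09e-10), and -3.30 without the factors.

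**Figure D5:**
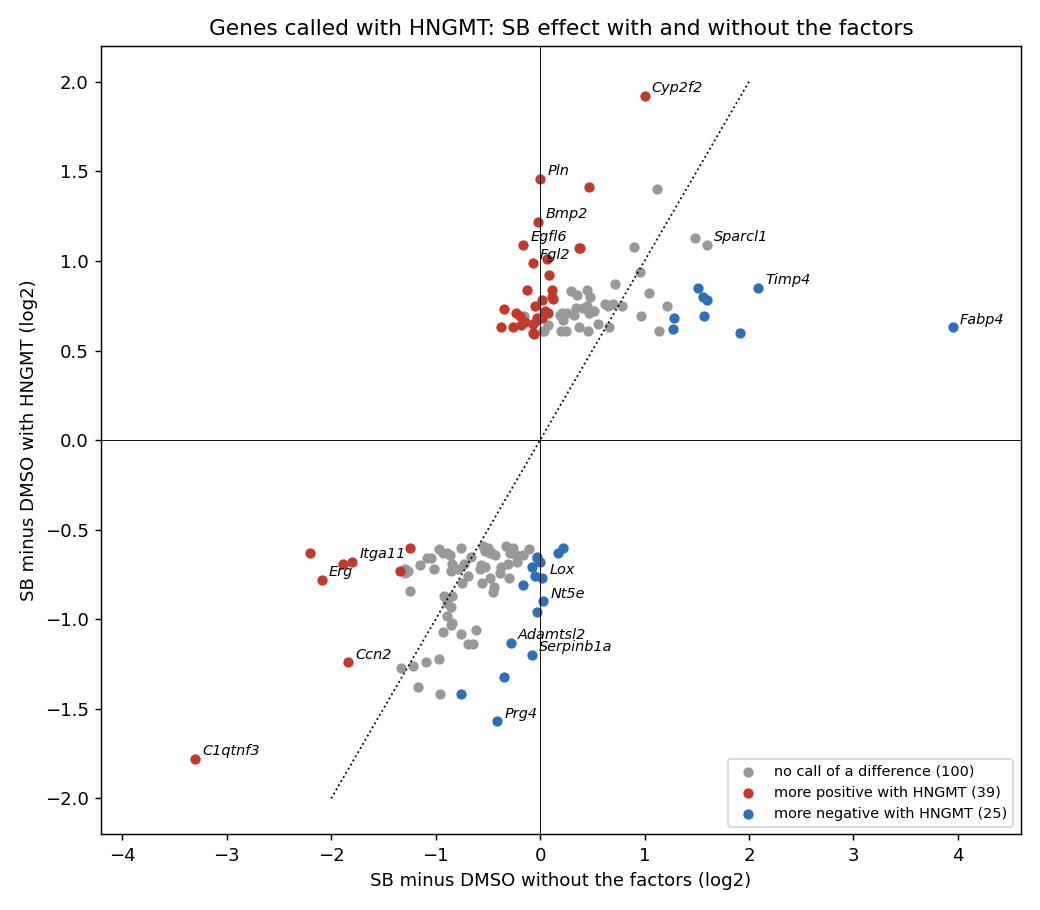
SB minus DMSO (log2) without the factors (horizontal axis) and with HNGMT (vertical axis) for the 164 genes called with HNGMT, on axes of different scale with equality as a dotted line. Color marks the 39 genes whose SB effect was more positive with HNGMT (red), the 25 for which it was more negative (blue) and the 100 without a called difference (gray).

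Some genes of growth factor pathways other than TGFβ passed the test, in both directions. Over all genes 3.34% were higher and 4.04% lower. Bmp2, a ligand of the BMP branch, read 8.40, 8.63 and 8.51 with DMSO and 9.71, 9.83 and 9.66 with SB (difference 1.22, adjusted p = 5.25e-07). It had -0.02 without the factors, a difference of 1.24 (adjusted p = 2.34e-05), and -1.06 with TGFβ1. Of 29 BMP pathway and Id genes only Bmp2 rose, 4 were higher and 7 lower (median 0.03), and without DMSO replicate 2 the number lower was 3. Chrd, the BMP antagonist chordin, was lower at -0.36, and Id2, a BMP-induced inhibitor of helix-loop-helix factors, was higher at 0.36. Of 33 genes of MAPK feedback and immediate early response none passed 1.5-fold, 7 were higher and 2 lower (median 0.02). Spry4, an inhibitor of growth factor signalling, was at 0.38, and Etv1, an ETS factor, at 0.43.

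Of 39 Wnt genes 2 rose, both secreted antagonists of Wnt ligands: Frzb by 0.73 (adjusted p = 2.25e-05) and Sfrp2 by 0.59 (adjusted p = 1.2e-05). Sfrp2 read 11.82, 11.78 and 11.68 with DMSO and 12.37, 12.44 and 12.26 with SB, and without SB replicate 2 or DMSO replicate 3 its 0.55 fell short of the fold threshold. In all, 6 of the list were higher and 3 lower (median 0.03). Dkk2, an inhibitor of the Wnt co-receptor, was higher at 0.34, and Dkk3 was lower at -0.30. Both Sfrp2 and Frzb had a more positive SB effect with the factors, by 0.65 and 1.08. Of 29 Notch and hedgehog genes 1 rose, 2 were higher and 1 was lower (median 0.03). It was Dlk1, a Notch-like membrane protein, which went from 12.26, 12.24 and 12.24 to 12.88, 12.88 and 12.81 (difference 0.61).

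Among 36 ligands and receptors of the FGF, PDGF, HGF and neurotrophin families 2 rose, 4 were higher and 8 lower (median -0.01). The number lower was 5 without SB replicate 2, SB replicate 3 or DMSO replicate 1. Kitl, or stem cell factor, rose by 0.72 (adjusted p = 1.24e-07), and Gfra2, a receptor of the neurotrophic factor neurturin, by 0.82. Pdgfc was lower at -0.53 and Fgf2 at -0.36. Of 20 genes of the IGF axis 1 rose, 4 were higher and 5 lower (median 0.01). Stc1, or stanniocalcin, rose by 0.75 and Igfbp2 was lower at -0.51.

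Complement genes and cytokines changed in small numbers. In the list of 27 complement and acute phase genes 4 rose, 1 fell, 6 were higher and 2 lower (median 0.07). Serping1, the inhibitor of C1, read 10.85, 10.89 and 10.77 with DMSO and 11.71, 11.71 and 11.48 with SB (difference 0.80, adjusted p = 1.14e-06). C1s1, one of the proteases that it inhibits, rose by 0.81, Lbp by 0.71 and the copper carrier gene Cp by 0.75. The gene that fell was C1qtnf3, which is not a complement component. Of 38 chemokines, cytokines and prostaglandin enzymes 3 fell, 1 rose, 8 were lower and 4 higher (median -0.01). Cxcl14 read 9.99, 9.92 and 9.83 with DMSO and 8.53, 8.52 and 8.44 with SB (difference -1.42). Ptgs2, the inducible cyclooxygenase, went from 12.04, 12.06 and 12.12 to 10.84, 10.77 and 10.81 (difference -1.27, adjusted p = 8.72e-10), with -1.33 in 0TF MEFs. Ptgis, the prostacyclin synthase, was lower at -0.44. Ccl5 rose by 0.68, and had -0.03 without the factors. Of 30 interferon-induced and antigen presentation genes 2 rose (Slfn5 and Sp100), 3 were higher and none was lower. The median was 0.22 against -0.27 in 0TF MEFs. The mean level of the list was 10.37 to 10.43 with DMSO and 10.66 to 10.68 with SB under HNGMT. In 0TF MEFs it was 11.01 to 11.33 with DMSO and 10.63 to 11.12 with SB, so these arrays overlapped. Rsad2, an antiviral protein, had 0.86 but did not pass (adjusted p = 0.0812), while it passed with the 6 arrays fitted alone (adjusted p = 0.000137) and with the replicate number as a block (adjusted p = 0.0367).

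Transcription factors of mesenchyme went both ways. Of 35, 2 rose, 1 fell, 7 were higher and 6 lower (median 0.02). Osr2 and Ebf1 rose by 0.83 and 0.70, and their relatives Osr1 (0.58) and Ebf3 (0.53) were higher. Ebf1 read 10.63, 10.75 and 10.61 with DMSO and 11.34, 11.36 and 11.37 with SB. With TGFβ1 these 4 genes had -1.20, -1.10, -1.21 and -0.98. Meox1, a homeobox gene, fell by 0.64, and Lhx9 was lower at -0.32. Osr2 and Meox1 were picked after their values were seen.

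Cell division genes did not pass the test, and a minority of general metabolism genes did. Among all genes measured, 3.34% were higher and 4.04% lower. None of 29 cell division genes was higher or lower (median -0.03), with values from -0.19 to 0.18, and none of 11 reference genes, with values from -0.06 to 0.09. Of 26 cell cycle inhibitors, p53 targets and apoptosis genes 1 fell, 2 were higher and 3 lower (median 0.03). Without SB replicate 2 none of them was higher, and without DMSO replicate 1 or replicate 3 only 1 was lower. The gene that fell was Sfn, at -0.77, which encodes the 14-3-3 sigma protein. Of 32 genes of mitochondrial respiration and fatty acid oxidation 3 were higher and none lower (median 0.07), with Pdk4, which restrains glucose oxidation, at 0.39. Hypoxia and glycolysis genes had 2 higher and 4 lower of 26 (median 0.01). The number higher in that list was 0 without SB replicate 1, DMSO replicate 1 or DMSO replicate 3, and the number lower was 1 without SB replicate 2, SB replicate 3 or DMSO replicate 2. Sterol and fatty acid synthesis genes had 2 higher and 1 lower of 24 (median -0.01). In the list of 27 ATF4 and unfolded protein response genes 1 fell, 3 were lower and none was higher (median -0.08). It was Nupr1, a stress-induced chromatin protein, which read 12.47, 12.48 and 12.41 with DMSO and 11.74, 11.77 and 11.81 with SB (difference -0.68, adjusted p = 1.46e-09).

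Several genes with the largest changes belong to none of these lists. Slc14a1, a urea transporter, rose from 10.06, 10.26 and 10.21 to 11.25, 11.12 and 11.18 (difference 1.01), and Fgl2, a fibrinogen-like protein, from 10.79, 10.89 and 10.76 to 11.81, 11.92 and 11.67 (difference 0.99). Without the factors they had 0.07 and -0.07, and with TGFβ1 -2.42 and -2.75. Sned1, an extracellular matrix protein, rose by 1.08, and Itih4, an acute phase plasma protein, by 0.92. Ppbp, a platelet chemokine, fell by 1.22, with SB replicate 3 at 7.71 below the other two at 8.11 and 8.18.

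One microRNA gene was called. Of 291 measured microRNA genes none was higher and 5 were lower, and Mir181b-2 fell from 8.09, 8.30 and 8.41 to 7.49, 7.41 and 7.90 (difference -0.66, standard error 0.11, adjusted p = 0.000486). Mir181a-2, its neighbour on chromosome 2, was lower at -0.32 (adjusted p = 0.0222). The copies on chromosome 1, Mir181a-1 and Mir181b-1, had -0.06 and -0.05 and did not pass. In 0TF MEFs Mir181b-2 had -0.03, a difference of -0.63 (adjusted p = 0.0117). The probe sets read the hairpin or its precursor on an array of total RNA, not the mature microRNA. The mature sequence from the 5′ arm, at chr2:38853845-38853868 on the plus strand in RefSeq (GRCm38.p6), is shown with its seed, bases 2 to 8, in capitals, because the seed is what pairs with targets.
mmu-miR-181b-5p: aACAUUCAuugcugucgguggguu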

How the data were processed

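Total RNA was read on Mouse Gene 1.0 ST arrays (Affymetrix). The deposited values are log2 intensities that the authors made before deposition. Their methods name Microarray Suite 5.0 and PartekGS, and further settings are not given in the sources used here. Values were used as deposited. Of 35556 probe sets, those with 1 symbol were kept, and the brightest stood for a gene with several (999 genes). The number of arrays limits the precision.

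The 18 MEF arrays were fitted in limma 3.58.1 (R 4.3.3) with a coefficient for each group, which left 12 residual degrees of freedom. An interaction contrast compared the SB effect with HNGMT to that in 0TF. Calls on simulated data with known changes were checked first. The 37 gene lists and 10 marker lists (1184 of 1252 entries matched) and the members were chosen with earlier results of these data known. Named genes were the 15 highest and 15 lowest called log2 differences, from each list the 4 members of lowest p at most (2 where fewer than 2 were called), the SB receptors and the 5 factors. Other names were chosen after their values were seen. The arrays of cardiac fibroblasts were not used. Promoter and microRNA sequences came from RefSeq tables and were searched on both strands. The alternatives tried are given in the closing section.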

Additional observations from a re-analysis of the deposited data

Results flagged for a closer look

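For 49 of the 150 named genes, limma called the SB effect with HNGMT different from that without the factors by at least 1.5-fold (difference given on the log2 scale, SB effect with HNGMT minus SB effect in 0TF MEFs). The effect was more positive with HNGMT for 32 and more negative for 17. The contrast took 4 groups of 3 arrays.

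Among adipocyte genes, the difference was -4.23 for Cd36, -3.32 for Fabp4, -1.22 for Pparg and -0.60 for Lpl. Among sarcomere and calcium handling genes, the difference was 1.46 for Pln, 0.96 for Actc1, 0.93 for Tnni3, 0.81 for Gja5, 0.72 for Hcn4 and 0.68 for Myl7. Among matrix genes that fell or were lower with HNGMT, the difference was 1.64 for Col8a1, 0.66 for Ccn4, 0.60 for Ccn2, -0.79 for Lox, -0.85 for Adamtsl2 and -1.16 for Prg4. Among matrix genes that rose with HNGMT, the difference was 1.24 for Egfl6, 0.87 for Ccn3, 0.70 for Mmp3 and -1.24 for Timp4. Among adhesion and muscle-associated genes, the difference was 1.13 for Itga11, -0.97 for Mpzl2, -0.63 for Cdh10 and -0.66 for Pdlim3. Among signalling ligands, receptors and antagonists, the difference was 1.24 for Bmp2, 1.08 for Frzb, 0.94 for Angpt2, 0.84 for Npr3, 0.69 for Agtr1a and 0.65 for Sfrp2. Among immune and acute phase genes, the difference was 0.69 for Serping1, 0.83 for Itih4, 0.71 for Psmb9, 0.70 for Ccl5, 0.66 for Sp100, 0.63 for Lbp, 1.52 for C1qtnf3, -0.66 for Cxcl14 and 1.06 for Fgl2. For the remaining named genes the difference was -1.14 for Acvr1c, -1.12 for Serpinb1a, -0.94 for Nt5e, -0.78 for S100b, -0.60 for Pfkfb3, 0.67 for Map2, 0.70 for Mkx, 0.92 for Cyp2f2, 0.94 for Slc14a1 and 1.31 for Erg. Of the genes named beyond the rule 8 were called in the same way, with -3.91 for Adipoq, -0.80 for Aldh1a1, -0.63 for Mir181b-2, 0.68 for Crabp2, 0.69 for Scx, 0.71 for Myh6, 0.86 for Skil and 0.94 for Tnnt2. For Tnnt2 the SB effect was -0.85 in 0TF MEFs and 0.09 with HNGMT. Its levels lie near the top of the arrays, and whether a change goes unseen there was not tested.

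Probe sets outside the analysis by gene also passed the test. In the same fit over all probe sets, 9 of 12146 probe sets with no symbol were called (2 raised and 7 lowered by SB with HNGMT), and 3 of 1621 with several symbols (1 raised and 2 lowered). They are not named here.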

How the results depend on the processing

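With each of the 6 arrays left out in turn, the genes raised by SB with HNGMT numbered 74 to 85, those lowered 81 to 88, those higher at any fold 416 to 743 and those lower at any fold 504 to 1035. The lowest of these were without SB replicate 1 for higher genes (416), with 441 without SB replicate 2 and 438 without DMSO replicate 3, and without DMSO replicate 2 for lower genes (504). The differences from 0TF numbered 169 to 192 more positive and 209 to 231 more negative. Tested against 1.5-fold itself with limma's treat, 10 genes were raised and 25 lowered, and 40 and 74 differed from 0TF in the positive and negative direction. A stricter null hypothesis makes these counts smaller by construction. Over the other settings (fewer arrays, trend and robust variance, dim genes left out, mean of probe sets, quantile normalization, median centring and the replicate block), the raised genes numbered 67 to 83 and the lowered 82 to 89. With the replicate number as a block (replicate block) 78 genes were raised and 86 lowered. The deviations of same-numbered SB and DMSO arrays correlated at 0.46, 0.03 and 0.33, and those of different-numbered arrays at -0.41 to 0.29. The numbers were not taken as pairs in the main fit, and whether they mark a shared batch was not tested. The block ended the call of none of the 150 named genes. It gave one at any fold to Rsad2 (adjusted p = 0.0367) and Chrna1 (adjusted p = 0.041). No named gene changed direction past the threshold under any of these settings, and 10 lost their call without at least 1 of the arrays. For Elovl6, Ptprb, Psmb9, Notch3, P4ha1 and Casp12, all close to the adjusted p threshold, this was the p, and for Ccn4, Myl7, Hcn4 and Sfrp2 the fold. Myl7 (0.58) and Adgrf5 (0.57) under quantile normalization and Sfrp2 (0.58) under median centring fell short of the fold threshold. With the 6 arrays fitted alone Tbx20 (adjusted p = 0.0977), Notch3 (adjusted p = 0.0569), Elovl6 (adjusted p = 0.0607) and Ptprb (adjusted p = 0.075) did not pass, nor did Ptprb with trend and robust variance (adjusted p = 0.0546). Small list counts also moved with 1 array: 0 smooth muscle genes were higher without SB replicate 2, DMSO replicate 2 or DMSO replicate 3, 0 proteoglycan genes rose and 0 mesenchymal factors fell without DMSO replicate 1, which also gave 5 lower genes of the unfolded protein response, 3 of sterol synthesis and 4 higher Notch and hedgehog genes. Without SB replicate 3, 5 genes of mitochondrial respiration were higher. Median centring moved the median of all genes from 0.0087 to -0.0088. The 3 called genes with a second probe set, Kif26b, Ppargc1a and Sfn, kept their direction in it.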
